A study of Sus scrofa with 8 samples.

Results

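The colony-stimulating factor genes described here are a pair of ligands, IL34 and CSF1, and 4 receptor genes, CSF1R, CSF2RA, CSF2RB and CSF3R. They were taken by name and selected on earlier results of the same banded-against-control comparison, so every difference between the groups for these genes is given as a description. The authors' gene names paired 5 of the 6 names with 1 gene model each, out of 31908 gene models in the count table. CSF2RA had no model of its own name and no one-to-one human orthologue, and is described separately below from 2 one-to-many models.

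CSF1R is a receptor tyrosine kinase on which macrophages and their precursors depend for survival and growth. IL34 and CSF1 are alternative ligands of that receptor, made in many tissues by cells other than macrophages, such as epithelial, endothelial, stromal and nerve cells. CSF2RA and CSF2RB form the receptor for granulocyte-macrophage colony-stimulating factor, in which CSF2RB is the signalling chain that the interleukin-3 and interleukin-5 receptors also use. CSF3R is the receptor for granulocyte colony-stimulating factor and is best known from neutrophils. In the heart, resident macrophages are the main cells that carry CSF1R.

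Bulk RNA was sequenced from the right ventricle of 8 pigs of the Yorkshire Cross breed, with 1 library per animal. The banded group held 4 castrated male piglets whose main pulmonary artery was constricted with a tape at an age of 4.5 ± 0.6 weeks and a weight of 6.4 ± 1.3 kg, until the peak pressure in the right ventricle reached about 30 to 40 mmHg. The control group held 4 pigs with the treatment given as none, of similar age and weight, kept for 8 weeks. No allele, drug or other agent was named for either group. The sources used here do not give the time from banding to sampling, the sex of the controls or any sham operation. Sex, surgery and age at sampling thus cannot be told apart from banding. A sequencing batch is not named, so a part of batch could not be examined.

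The libraries held 31033679 to 34183338 counts. Cardiomyocyte markers dominated in every library, with 29480 to 37200 CPM (a gene's count scaled to a common library total, with TMM normalisation) summed over 7 marker genes in banded pigs and 19690 to 25680 CPM in controls. TNNI3, a cardiac troponin gene, was nonetheless low, at 6.45 ± 3.74 CPM in banded pigs and 15.3 ± 3.64 CPM in controls (SD, n = 4 each). Mitochondrial transcripts took the smallest share of counts in banded 3 (30.5%) and the largest in control 4 (43.9%). The mean column of the authors' deposited comparison matched the counts of 7 libraries without banded 3 within 0.1% for 99.9% of 12299 genes, and those of all 8 libraries for 1.98%. Values from the authors' deposited table are thus read as coming from 7 animals, and results below are given with and without banded 3 where it moves them.

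IL34 was 2.83-fold higher in banded than in control right ventricles, while CSF1 and the receptor genes that could be tested showed no difference past the threshold. IL34 was at 58.2, 60.8, 33.1 and 35.2 CPM in banded 1 to 4, against 17.5, 16.5, 17.0 and 15.2 CPM in controls 1 to 4. The lowest banded animal lay well above the highest control, and the banded animals fell into a higher pair (1 and 2) and a lower pair (3 and 4). The coefficient of variation was 31.4% in banded animals and 6.09% in controls. The log2 fold change was 1.50 ± 0.20 (SE), with a 95% interval of the fold of 2.08 to 3.85 and an edgeR quasi-likelihood adjusted p of 0.00188. IL34 ranked 79 of 13697 tested genes by p. Of the 5 genes tested, IL34 was the 1 called at an adjusted p under 0.05 and the 1 whose groups did not overlap. Over all tested genes 6.97% were called (3.47% higher and 3.50% lower in banded pigs) and 15.9% did not overlap, and since the genes were selected on this comparison nothing is read from their count, and their p-values describe the selection rather than test it.

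**Figure D1:**
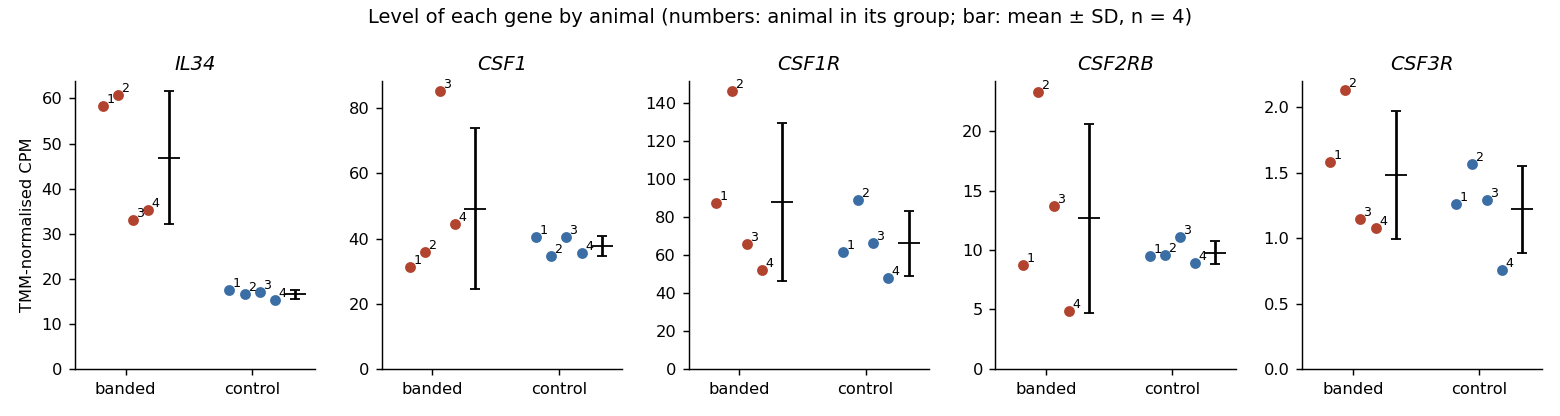
TMM-normalised CPM (vertical axis) of each gene in each animal, banded left and control right, with the animal's number beside its point and the mean ± SD (n = 4) as a bar. For IL34 all 4 banded animals (33.1 to 60.8 CPM) lie above all controls (15.2 to 17.5 CPM), and in the other panels the groups overlap.

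The call of IL34 held without any 1 library, with log2 fold changes of 1.35 (without banded 2) to 1.63 (without banded 3) and adjusted p of 0.000492 to 0.0108. In the authors' deposited table the log2 fold change of control over banded was -1.63 ± 0.20 with an adjusted p of 1.93e-13. The IL34 gene model lies on the plus strand of chromosome 6 (13588775 to 13678738, Sscrofa11.1). Of its 20 annotated exon intervals, 4 overlap exons of MTSS2, a cytoskeletal regulator gene on the minus strand. At the same locus, 6 of the 20 reach into the span of the RefSeq gene MTSS1L. The authors' counting used strand, per the file headers, and the part of MTSS2 reads in the IL34 counts was not tested. MTSS2 was at 32.9, 33.8, 27.1 and 58.1 CPM in banded 1 to 4, against 59.4, 67.6, 66.5 and 49.1 CPM in controls 1 to 4 (log2 fold change -0.68 ± 0.22, adjusted p = 0.0915). The banded and control values of MTSS2 overlapped through banded 4 and control 4. MTSS2 is no member of the family and was picked for this overlap after its values were seen.

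CSF1, the other ligand of CSF1R, differed mainly in 1 animal. It was at 31.3, 35.9, 85.3 and 44.4 CPM in banded 1 to 4, against 40.5, 34.5, 40.5 and 35.5 CPM in controls 1 to 4. Banded 3 held the most of any animal and banded 1 lay below every control, so the groups overlapped. The log2 fold change was 0.38 ± 0.28 (1.30-fold, 95% interval 0.846 to 2.01, adjusted p = 0.447). Without banded 3 it was -0.02 (adjusted p = 0.95). The authors' deposited table likewise gave 0.02 ± 0.17 for control over banded (adjusted p = 0.963). The gene model lies on the minus strand of chromosome 4 (110178478 to 110197901).

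The balance of the ligands varied among banded animals and was nearly constant among controls. Levels of different genes were compared as TPM, which divides counts by exon length within a library. IL34 made up 58.4%, 56.1%, 22.6% and 37.4% of the summed IL34 and CSF1 TPM in banded 1 to 4, against 24.6%, 26.5%, 24.1% and 24.4% in controls 1 to 4. IL34 exceeded CSF1 in banded 1 and 2, and its share in banded 3 lay below that of every control. The sum of both ligands was 23.5, 31.1, 38.8 and 21.6 TPM in banded 1 to 4, against 18.7, 18.0, 20.0 and 13.3 TPM in controls 1 to 4. All 4 banded animals thus held more ligand transcript than any control, through IL34 in banded 1, 2 and 4 and mainly through CSF1 in banded 3.

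CSF1R was the most abundant of the genes per length, with a mean of 24.4 TPM over the 8 animals, followed by CSF1 (14.9 TPM), IL34 (8.18 TPM), CSF2RB (3.35 TPM) and CSF3R (0.67 TPM). In banded animals CSF1R was at 87.5, 147, 66.1 and 52.1 CPM, against 61.6, 89.2, 66.3 and 47.9 CPM in controls 1 to 4. Banded 2 held the most of any animal, and the other banded animals lay within the range of the controls. The log2 fold change of 0.41 ± 0.31 (1.33-fold, 95% interval 0.818 to 2.16, adjusted p = 0.467) was 0.05 without banded 2. The interval covers both a small fall and a doubling. The CSF1R model lies on the minus strand of chromosome 2 (151102138 to 151147634), and 3 of its 96 exon intervals reach beyond the RefSeq CSF1R gene.

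IL34 transcript per CSF1R transcript separated the groups. The IL34 to CSF1R ratio in TPM was 0.555, 0.346, 0.418 and 0.564 in banded 1 to 4, against 0.238, 0.155, 0.214 and 0.265 in controls 1 to 4. The lowest banded ratio was above the highest control ratio. The CSF1 to CSF1R ratio was 0.396, 0.271, 1.43 and 0.944 in banded 1 to 4, against 0.728, 0.429, 0.676 and 0.822 in controls 1 to 4. Banded 1 and 2 lay below every control on that ratio, and banded 3 and 4 above every control. These ratios contain the genes that were selected on the comparison and were not tested.

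**Figure D2:**
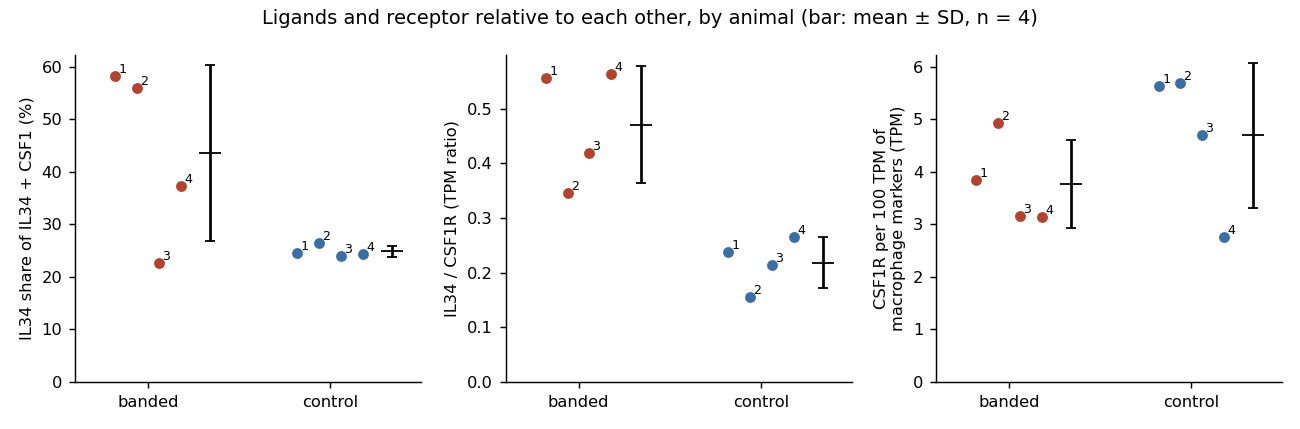
IL34 as a percentage of IL34 plus CSF1 TPM (left), the IL34 to CSF1R ratio in TPM (middle) and CSF1R TPM per 100 TPM of summed macrophage markers (right) in each animal, banded left of control in each panel, with the mean ± SD (n = 4) as a bar. The IL34 to CSF1R ratio is higher in all 4 banded animals (0.346 to 0.564) than in all controls (0.155 to 0.265), while the other measures overlap.

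Receptors of the granulocyte and granulocyte-macrophage factors varied widely among banded animals. CSF2RB was at 8.78, 23.3, 13.7 and 4.90 CPM in banded 1 to 4, against 9.53, 9.54, 11.13 and 8.92 CPM in controls 1 to 4. Banded 2 and 3 lay above every control and banded 1 and 4 below every control, and the coefficient of variation was 62.7% in banded animals against 9.66% in controls. The log2 fold change was 0.37 ± 0.39 (95% interval of the fold 0.707 to 2.38, adjusted p = 0.609), and -0.10 without banded 2. CSF3R was at 1.58, 2.13, 1.14 and 1.08 CPM in banded 1 to 4, against 1.26, 1.57, 1.29 and 0.76 CPM in controls 1 to 4. The groups overlapped, with a log2 fold change of 0.28 ± 0.38 (95% interval of the fold 0.685 to 2.16, adjusted p = 0.702), and 0.05 without banded 2. CSF3R rested on 23 to 75 counts per library, and all 33 exon intervals of its model also lie within the span of a long non-coding RNA gene, LOC102167570, whose strand is not given. Banded 2 was the highest banded animal for IL34, CSF1R, CSF2RB and CSF3R alike, and banded 4 the lowest for CSF1R, CSF2RB and CSF3R.

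CSF2RA could not be given a single value. The authors' deposited table lists CSF2RA as a one-to-many human orthologue of 2 gene models, 1 on an unplaced scaffold and 1 on the Y chromosome. The authors' counting kept reads with a mapping quality of at least 10. How many reads shared by near-identical copies that left out was not tested, so both values are uncertain. The scaffold model held 99, 240, 253 and 82 counts in banded 1 to 4, against 79, 113, 98 and 99 counts in controls 1 to 4. Banded 2 and 3 were above every control and the other banded animals within their range. The log2 fold change was 0.83 ± 0.34 (95% interval of the fold 1.06 to 2.97, adjusted p = 0.163). The authors' deposited table, read as without banded 3, gave -0.56 ± 0.35 for control over banded (adjusted p = 0.355). The Y model held 1, 38, 26 and 26 counts in banded 1 to 4, against 4, 12, 1 and 19 counts in controls 1 to 4 (log2 fold change 1.34 ± 0.92, adjusted p = 0.411). Banded 2 and 3 were thus high for CSF2RB and for the scaffold model of its partner.

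**Figure D3:**
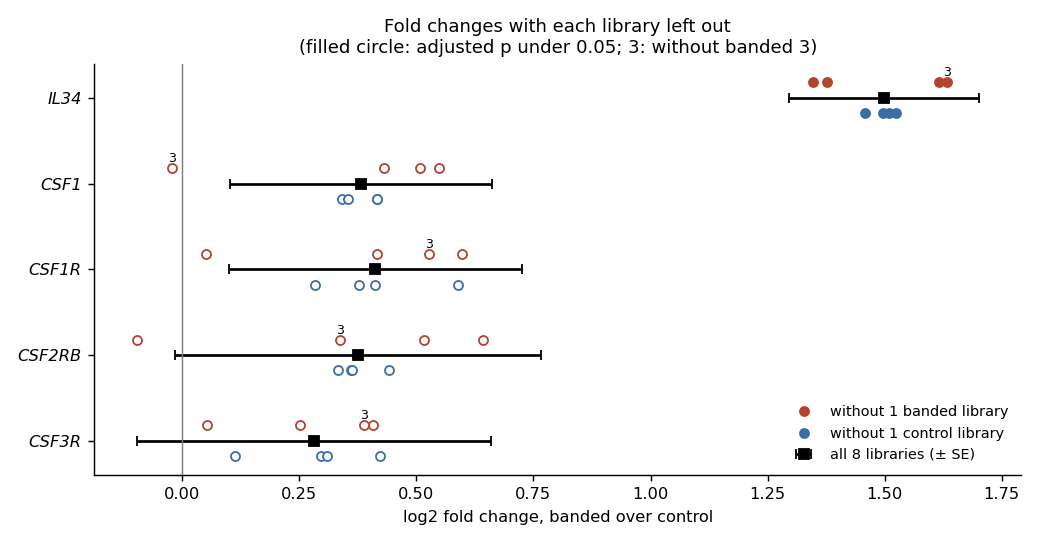
Log2 fold change of banded over control (horizontal axis) for each gene, from all 8 libraries (square, ± SE) and with each banded (upper circles) or control (lower circles) library left out; a filled circle has an adjusted p under 0.05 and a 3 marks the fit without banded 3. The circles of IL34 run from 1.35 to 1.63 and are all filled, while CSF1 drops to -0.02 without banded 3.

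Macrophages are the main cells that carry CSF1R, and most of their markers were somewhat higher in banded pigs. Of 20 listed markers, 19 were tested, 2 were called higher (against 3.47% of all tested genes) and 0 lower, 17 had a positive log2 fold change and the median was 0.59, against a median of 0.02 and 51.6% positive over all tested genes. At an unadjusted p under 0.05 there were 13 of 19, against 23.8% of all tested genes. The 2 called were CD209, a lectin of macrophages and dendritic cells, and CD14, the co-receptor for bacterial lipopolysaccharide. CD209 was at 31.9, 34.8, 15.7 and 15.3 CPM in banded 1 to 4, against 2.41, 5.31, 4.95 and 8.46 CPM in controls 1 to 4. All banded animals were above all controls, and banded 1 and 2 were again the higher pair (log2 fold change 2.21 ± 0.41, adjusted p = 0.0165). CD14 was at 16.5 ± 5.56 CPM in banded pigs and 7.81 ± 2.41 CPM in controls (SD, n = 4 each, log2 fold change 1.08 ± 0.28, adjusted p = 0.043). The adjusted p of CD209 passed 0.05 when control 2 (0.0591) or control 3 (0.0613) was left out, and that of CD14 when any 1 of controls 1 to 3 (0.0847 to 0.126) or of banded 1 to 3 (0.0647 to 0.0944) was. C1QC, a complement C1q chain and the most abundant marker in TPM, was at 211 ± 57.9 CPM in banded pigs and 138 ± 24.7 CPM in controls (adjusted p = 0.0983). DESeq2 and limma-voom with quality weights each called 7 macrophage markers higher. These tools also called more genes of all kinds, 1629 and 1341 in either direction, against 954 in edgeR.

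Summed over the 20 markers, macrophage transcripts were at 643, 1023, 664 and 457 TPM in banded 1 to 4, against 344, 542, 478 and 443 TPM in controls 1 to 4. In the banded group 3 animals exceeded every control, and banded 4 did not. CSF1R per 100 TPM of these markers was 3.85, 4.93, 3.16 and 3.13 TPM in banded 1 to 4, against 5.63, 5.69, 4.70 and 2.75 TPM in controls 1 to 4, and the groups overlapped on this measure. IL34 per 100 TPM of macrophage markers was 1.73 ± 0.335 TPM in banded pigs and 0.989 ± 0.26 TPM in controls (SD, n = 4 each), with banded 3 within the range of the controls. In bulk tissue a change in the number of cells of a type and a change in RNA per cell cannot be told apart, and the part of macrophage content in these results was not tested.

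IL34 was also set against markers of the cell types that could make it. Per 100 TPM of 7 endothelial markers it was 6.72 ± 2.49 TPM in banded pigs and 2.11 ± 0.089 TPM in controls, and per 100 TPM of 9 fibroblast markers 0.361 ± 0.077 TPM in banded pigs and 0.127 ± 0.023 TPM in controls (SD, n = 4 each). All banded animals exceeded all controls on both measures. Both contain IL34, which was selected on the comparison, so this separation is a description and was not tested. Endothelial markers held 0 members called higher and 1 lower of 7, EMCN, and fibroblast markers 1 higher, PI16, and 1 lower, PDGFRA, of 9 (EMCN and PI16 were named after their values were seen). Over all tested genes 3.47% were called higher and 3.50% lower. Per 100 TPM of cardiomyocyte markers the groups overlapped, with 0.025 ± 0.0098 TPM in banded pigs and 0.0141 ± 0.0025 TPM in controls. Epithelial and mesothelial markers were also higher in banded pigs, at 33.0 to 123 CPM summed over 4 genes against 2.59 to 22.3 CPM in controls. Most of it was KRT8, a keratin of simple epithelia. EPCAM, which defines epithelium, was at 0.0929 ± 0.077 CPM in banded pigs and 0.0211 ± 0.0422 CPM in controls. MSLN was at 0.884, 7.45, 0 and 0 CPM in banded 1 to 4, against 0.176, 2.61, 0 and 0.198 CPM in controls 1 to 4. CDH1 was at 2.18, 6.23, 1.39 and 0.313 CPM in banded 1 to 4, against 0.792, 2.70, 0.815 and 1.06 CPM in controls 1 to 4. KRT8, MSLN and CDH1 were each highest in banded 2, and MSLN and CDH1 were named after their values were seen. KRT8 had an edgeR adjusted p of 0.0787 (log2 fold change 3.08 ± 0.83), while DESeq2 (0.00222) and limma-voom (0.00712) called it, and its part in the IL34 difference was not tested.

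Neutrophil markers stayed low beside CSF3R. Of 12 entries 9 had a gene model and 3 were tested, with 0 called by edgeR, DESeq2 or limma-voom and 0 at an unadjusted p under 0.05, and the 9 summed to 1.05 to 1.96 CPM in banded pigs and 1.54 to 1.95 CPM in controls. The granule genes MPO and ELANE had 0 counts in all 8 libraries. If their models can be counted, that allows at most 0.0842 to 0.104 CPM per library (3 counts of the total, counting error only). LYZ and CD3G of other lists also had 0 counts in all 8, and whether such models can be counted was not tested. CXCR1, CXCR2 and CAMP matched no gene model. The most abundant of the neutrophil markers per length, S100A12, was at 0.437 ± 0.32 CPM in banded pigs and 0.546 ± 0.29 CPM in controls (SD, n = 4 each, adjusted p = 0.828). Monocyte markers had 1 called higher (against 3.47% of all tested genes) and 0 lower of 5. The called gene was PLAC8, which was named after its values were seen (5.52 ± 3.05 CPM in banded pigs and 0.911 ± 0.85 CPM in controls, adjusted p = 0.0385).

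Cardiomyocyte markers also differed between the groups, in both directions. Of 7 markers edgeR called 2 higher (against 3.47% of all tested genes) and 0 lower, DESeq2 called 3 higher and 2 lower, and limma-voom 3 higher and 1 lower. The groups did not overlap for 6 of the 7, against 15.9% of all tested genes, and the part of heart muscle content in the IL34 difference was not tested. MYL2, a ventricular myosin light chain, rose to 17460 ± 2543 CPM in banded pigs, against 9264 ± 1353 CPM in controls (SD, n = 4 each, adjusted p = 0.0113), though all 17 exon intervals of its model also lie within the span of CCDC63. Of 4 dendritic cell markers 0 were called higher and 1 lower (against 3.50% of all tested genes). That gene was ZBTB46, a transcription factor of dendritic and endothelial cells, which fell to 4.59 ± 0.998 CPM in banded pigs, against 9.49 ± 3.32 CPM in controls (adjusted p = 0.0471). Leaving out any library but control 4 ended that call (0.0619 to 0.15). Lists of lymphocytes (11 tested), mast cells and eosinophils (2), smooth muscle and pericytes (8), Schwann cells (5), adipocytes (4) and red blood cells (3) held 0 calls in edgeR, against 6.97% of all tested genes. They had 6 genes at an unadjusted p under 0.05, against 23.8% of all tested genes. In the same lists DESeq2 called 1 gene higher and 4 lower, and limma-voom 1 higher and 0 lower. Over all genes these tools called 1629 and 1341 in either direction. CD36, a fatty acid transporter listed for monocytes with 58 of its 140 exon intervals within LOC100511343, was at 312 ± 80.3 CPM in banded pigs and 429 ± 33.2 CPM in controls (adjusted p = 0.168). COL3A1, a fibrillar collagen of fibroblasts, was at 4974 ± 1238 CPM in banded pigs and 5878 ± 813 CPM in controls (0.508), and CDH5, the cadherin of endothelium, at 161 ± 18.2 CPM in banded pigs and 191 ± 18.5 CPM in controls (0.295).

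Among related ligands and receptors, 0 of 9 tested genes were called higher and 1 lower, PDGFRA, against 3.47% and 3.50% of all tested genes. CSF2, the ligand of the CSF2RA and CSF2RB receptor, was under the filter on low counts, with 0 to 0.126 CPM in banded pigs and 0 to 0.029 CPM in controls. CSF3, the ligand of CSF3R, was at 0.327 ± 0.44 CPM in banded pigs and 0.356 ± 0.056 CPM in controls (SD, n = 4 each, adjusted p = 0.947). IL3 and IL3RA matched no gene model. PDGFRA, a receptor kinase of the same class as CSF1R that marks fibroblasts, fell to 42.2 ± 5.38 CPM in banded pigs, against 59.4 ± 6.54 CPM in controls (log2 fold change -0.49 ± 0.13, adjusted p = 0.048). Its groups did not overlap, but the call ended without banded 1, banded 4 or any 1 control (adjusted p 0.0648 to 0.151). The most abundant entry of the lists, FLT3LG, was not separable, since exon intervals of its gene model also lie within RPL13A and ALDH16A1 (777 ± 60.1 CPM in banded pigs and 763 ± 112 CPM in controls, adjusted p = 0.936).

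Across the wider pathway, 5 lists of related cytokines, receptors, signalling genes and myeloid transcription factors held 49 genes. Of these 42 were tested, 2 were called higher and 1 lower, the receptor gene PDGFRA. That share is close to the 6.97% of all tested genes, and the median log2 fold change was 0.04. PTPN11, the phosphatase SHP2 that carries signals of many cytokine and growth factor receptors, rose to 112 ± 8.89 CPM in banded pigs, against 76.2 ± 2.01 CPM in controls (log2 fold change 0.56 ± 0.11, adjusted p = 0.0147). PIK3R1, the regulatory subunit of phosphoinositide 3-kinase, rose to 103 ± 18.4 CPM in banded pigs, against 64.8 ± 14.3 CPM in controls (0.67 ± 0.18, adjusted p = 0.0497). Leaving out any 1 of controls 1 to 3 ended the call of PTPN11 (0.0555 to 0.0598), and leaving out any library but banded 4 ended that of PIK3R1 (0.0563 to 0.145). Library size scaling called neither (0.0586 and 0.0967). Both genes are expressed in most cell types. The 10 signalling genes of the CSF2 and CSF3 receptors had 8 positive log2 fold changes, against 51.6% of all tested genes. Their median was 0.49, and 1 of them, PTPN11, was called. Banded 3 stood apart for some of the positive genes. STAT3 was at 178 CPM in banded 3, against 79.4 to 86.7 CPM in the other banded animals. SOCS3 was at 27.45 CPM there, against 4.93 to 8.52 CPM, and LYN at 32.65 CPM, against 13.9 to 18.8 CPM. Fits of these genes without banded 3 are not given here. The 8 tested myeloid transcription factors had 4 positive log2 fold changes and 0 calls in edgeR (1 at an unadjusted p under 0.05), while DESeq2 and limma-voom each called 1 of them lower. SPI1, the master regulator of macrophages that activates CSF1R, was at 36.5 ± 2.38 CPM in banded pigs and 34.7 ± 4.97 CPM in controls (adjusted p = 0.781, named after its values were seen).

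**Figure D4:**
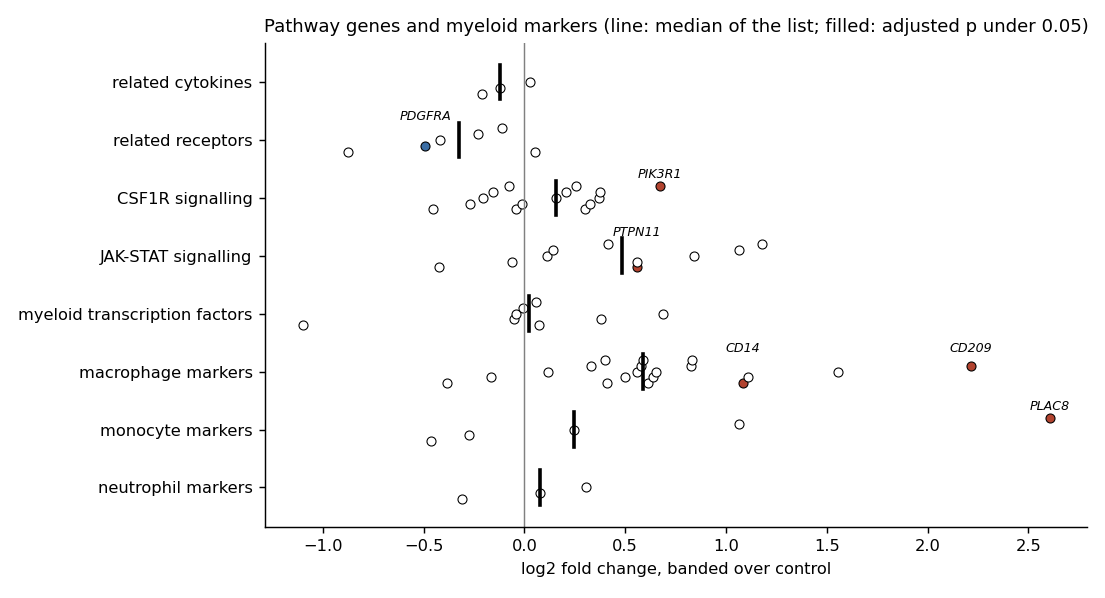
Log2 fold change of banded over control (horizontal axis) for the tested genes of each pathway or myeloid marker list (rows), with the list's median as a line; filled points have an adjusted p under 0.05 and carry the gene's name. Macrophage markers lie mostly to the right of 0 with a median of 0.59, while the medians of the pathway lists run from -0.32 to 0.49.

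Genes were ranked by likeness to IL34, CSF1 and CSF1R after each group's mean was subtracted, by the Pearson correlation of log2 CPM over the 8 libraries among 11320 genes. The 3 most like IL34 were ANPEP, the aminopeptidase N gene (r = 0.981), FAM171B (0.979) and ISYNA1, an enzyme of inositol synthesis (0.978). The 3 most like CSF1 were JADE3 (0.984), TBC1D9 (0.981) and POLR1C, a subunit of RNA polymerases I and III (0.981). The 3 most like CSF1R were DTX2, a ubiquitin ligase gene (0.986), TGFBRAP1 (0.984) and NCKAP5L (0.982). With 8 libraries and so many genes, such values describe which animals were high or low, largely the banded ones, and 0 of the 9 genes was called between the groups (adjusted p 0.157 to 0.965). ANPEP, closest to IL34 within groups, was at a mean of 3.28 CPM in banded pigs and 2.90 CPM in controls.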

How the data were processed

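Right ventricular RNA of 4 banded and 4 control pigs was compared, with samples grouped by their treatment labels. The labels give no pairing or batch and do not say more on how the animals were chosen. Per the file headers, the deposited counts are whole numbers that the authors obtained with featureCounts 1.6.2 (mapping quality at least 10, strand setting 2) on Ensembl release 106 of Sscrofa11.1. Trimmomatic, HISAT2 and DESeq2 are named in the submitters' processing notes, without versions. The authors' deposited comparison holds log2 fold changes of control over banded with standard errors, the mean signal over libraries after normalisation, a Wald statistic (score) and p-values, raw and adjusted. Its other columns were used for gene names. Symbols came from a reference table (15029), the authors' gene names (713) and one-to-one human names (474), and 153 of 173 list entries matched.

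Genes were kept by filterByExpr (minimum count 10, minimum total 15), scaled by TMM and compared in R 4.3.3 with edgeR 4.0.16 (quasi-likelihood test, robust, two-sided, Benjamini-Hochberg over 13697 genes, threshold 0.05), which was tested on simulated data. The SE was the log2 fold change over the square root of F, and 95% intervals used its degrees of freedom. Alternatives used DESeq2 1.42.0, limma 3.58.1 and other scalings and filters. The members and all gene lists were chosen with earlier results of these data known. Named genes were the members, up to 4 called genes a direction and the most abundant gene from the pathway and macrophage lists, the most abundant gene of other lists, and the 3 genes most like IL34, CSF1 and CSF1R, and 1 gene that the rule gave is not reported here. Counts per library limit precision for low genes, and no sequences were used here.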

Additional observations from a re-analysis of the deposited data

Results flagged for a closer look

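Of 92 groups of 4 animals examined for a stray animal, 4 had 1 far from the others, about as many as the 1 in 20 that chance flags. GNLY, a cytotoxic granule gene of lymphocytes, was at 9.84 CPM in banded 4 and at 25.9 to 28.0 CPM in the other banded animals. ADIPOQ, an adipocyte hormone gene, was at 199 CPM in banded 1, against 2.60 to 11.7 CPM in the other banded animals, and at 23.5 CPM in control 1, against 8.12 to 10.0 CPM in the other controls. HBB, a haemoglobin gene, was at 1730 CPM in banded 4 and at 125 to 168 CPM in the other banded animals. Banded 1 had the highest IL34 beside banded 2, and banded 4 the lowest CSF1R and CSF2RB of the banded animals; the part of fat or blood in those values was not tested. For IL34, CSF1, CSF1R, CSF2RB and CSF3R no animal passed this limit, CSF1 in banded 3 included.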

How the results depend on the processing

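IL34 stayed called in all 18 alternatives, with a log2 fold change of 1.35 to 1.63 and adjusted p of 1.77e-13 to 0.0108. CSF1, CSF1R, CSF2RB and CSF3R were called in none of theirs (lowest adjusted p 0.2), and CSF2RA, with no model under the rule, got no value. CSF3R and the markers S100A12 and ADIPOQ gave no value in 1 alternative each. CSF1 turned to -0.022 without banded 3 in edgeR (leaving out 1 library gave -0.022 to 0.55) and to -0.0207 in DESeq2 on those 7 libraries, an alternative added after the data were seen. Leaving out 1 library gave -0.10 to 0.64 for CSF2RB. All-gene calls numbered 1629 in DESeq2, 1534 in DESeq2 on 7 libraries and 399 to 962 without 1 library (399, 415 and 409 without control 1, 2 or 3). Pathway genes called higher numbered 4 in DESeq2, in DESeq2 on 7 libraries and in limma-voom, 1 without robust estimation, with median-of-ratios or without mitochondrial genes, 0 with library size alone and 0 to 3 without 1 library. Those called lower numbered 3 in DESeq2 and limma-voom, 0 without robust estimation or a filter, 2 with the stricter filter and 0 to 2 without 1 library. Macrophage markers called higher numbered 7 in DESeq2 and limma-voom, 8 in DESeq2 on 7 libraries, 1 with library size alone and 0 to 6 without 1 library. Small uncalled values changed sign: FLT3LG was -0.0247 in DESeq2 on 7 libraries, -0.0654 with library size alone and -0.0373 to 0.13 without 1 library, S100A12 0.0587 in limma-voom and -0.84 to 0.0107, MS4A2 -0.00838 with library size alone and -0.25 to 0.36, and TAGLN -0.0838 in DESeq2 on 7 libraries and -0.0848 to 0.41. Without 1 library ADIPOQ ran from -1.09 to 2.57, HBB from -0.31 to 1.99, ANPEP from -0.32 to 0.51 and TBC1D9 from -0.32 to 0.14. The causes were not tested. Of 502 other single-gene values 44 lost and 8 gained a call. With 4 animals a group and a wide spread among banded animals, CSF1R, CSF2RB and CSF3R have intervals that reach past a doubling in banded pigs.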

Other observations

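In CPM, CISH, a feedback inhibitor gene switched on by STAT5, ranked highest in the same 2 banded animals as IL34. Its lowest banded animal was also the same 1. CISH was at 178, 124, 37.5 and 109 CPM in banded 1 to 4, against 42.7, 55.8, 53.1 and 46.6 CPM in controls 1 to 4. Banded 4 thus lay near banded 2 for CISH, but near banded 3 for IL34. Of the banded animals, banded 3 had the lowest IL34 in CPM, but banded 4 in TPM (8.08 TPM, against 8.76 TPM in banded 3). For CISH, banded 3, which had the highest CSF1, lay below every control. The other 3 banded animals lay above every control for CISH. The difference missed the threshold (log2 fold change 1.18 ± 0.39, edgeR adjusted p = 0.11). SOCS1, another feedback inhibitor of cytokine receptors, was at 1.72 ± 0.59 CPM in banded pigs and 0.822 ± 0.15 CPM in controls (SD, n = 4 each), without overlap, and also missed it (adjusted p = 0.112). Of the 10 signalling genes of the CSF2 and CSF3 receptors, 8 had a positive log2 fold change and 2 a negative. STAT5B, 1 of those 2, held 28.4 to 35.9 CPM in banded pigs and 41.5 to 45.5 CPM in controls. Its groups did not overlap (edgeR adjusted p = 0.0535). STAT5A differed little (log2 fold change 0.14 ± 0.17). DESeq2 and limma-voom each called 2 genes of this list higher and 1 lower. The part of STAT5 in the CISH values was not tested. CISH, SOCS1, STAT5A and STAT5B were chosen after their values were seen.

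Markers of resident macrophages missed the threshold. TIMD4, a receptor for dying cells, was at 2.65 ± 0.58 CPM in banded pigs and 1.49 ± 0.42 CPM in controls (SD, n = 4 each, edgeR adjusted p = 0.128). Its groups did not overlap. FOLR2, a folate receptor, was at 16.4 ± 4.44 CPM in banded pigs and 11.6 ± 1.72 CPM in controls, with overlap (adjusted p = 0.163). LYVE1, which also marks lymphatic endothelium and had 1 of the 2 negative log2 fold changes of the list, was at 31.4 ± 7.48 CPM in banded pigs and 41.0 ± 12.6 CPM in controls (adjusted p = 0.356). CD163, a haemoglobin scavenger receptor of macrophages, was at 113 ± 54.6 CPM in banded pigs and 52.2 ± 21.3 CPM in controls (adjusted p = 0.13). CD163 was highest in banded 2 (187 CPM), the banded animal with the most IL34 and CSF1R. These genes were chosen after their values were seen, and differences between them were not tested.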
